A study of Mus musculus with 11 samples.

Results

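The 10 genes described here mark the deep layers of the mouse cortex, and they were followed in ribosome-bound RNA of forebrain excitatory neurons. They are Fezf2, Bcl11b, Ldb2, Etv1, Tbr1, Sox5, Tle4, Foxp2, Ntsr1 and Pcp4, chosen by name as a set of known layer markers. The choice was made with earlier results of these data known. All 10 were found among the 77179 rows of the table through their Ensembl IDs. The most marked changes were a fall of Ntsr1 in ribosome-bound RNA to 3.62 TPM at P21, against 18.3 TPM at P7, and a rise of Pcp4 to 2957 TPM at P21, against 1141 TPM at P7. Fezf2, Bcl11b, Ldb2, Sox5 and Tle4 also ended lower. Tbr1 ended slightly higher, a call that was lost without P21 IP replicate 1. Etv1, highest at P14, and Foxp2 did not pass between P7 and P21.

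The tissue was cortex together with hippocampus of NEX-RiboTag mice, in which Cre from the Neurod6 (NEX) locus releases a GFP-tagged Rpl10a in forebrain excitatory neurons, so that tagged ribosomes can be pulled down with their mRNA. Pulled-down RNA (IP) comes from postnatal days 7 (P7), 14 (P14) and 21 (P21), in 3 libraries per age, all of genotype NEX-Cre;Rpl10aeGFP/eGFP. RNA of the whole tissue (input) comes from P7 alone, in 2 libraries, of which replicate 1 was NEX-Cre;Rpl10aeGFP/eGFP and replicate 2, without Cre, was Rpl10aeGFP/eGFP. The reporter allele was therefore carried by every animal, and the inputs differ in Cre genotype. The labels call the IP libraries biological replicates and do not say how many animals went into each. Cortex and hippocampus were processed as a single tissue, so no value can be placed in a cortical layer.

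Deep-layer excitatory neurons send axons out of the cortex. Those of layer 5 reach the brainstem and spinal cord and depend on the zinc finger factors Fezf2 and Bcl11b, while those of layer 6 reach the thalamus and depend on Tbr1, which holds Fezf2 down in that layer. These factors act mostly before birth, when the identities are set, and several stay on in the mature neurons. Several of the 10 genes are also known outside the deep layers, Bcl11b in dentate granule cells and striatal neurons and Pcp4 in hippocampal area CA2 and the dentate gyrus.

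Values are TPM, transcripts scaled for their length and to a fixed total per library, so levels of different genes can be compared, but the sequencing depth is unknown and no counting interval can be given. Log2 changes are on the log2(TPM + 1) scale with the standard error of a limma fit over all 11 libraries, and they understate changes of low genes. A change is called at an adjusted p below 0.05 over the 19008 genes tested, among them all 10 members. In bulk RNA fewer cells of a type and less RNA per cell cannot be told apart. Each library held 15154 to 17793 genes at 1 TPM or more, and correlations across genes within groups ran from 0.988 to 0.994. Of 8 excitatory neuron markers, 4 were called higher in P7 IP than in P7 input and 2 lower, with a median of 0.26. Of all genes tested 18.6% were called higher and 51.1% lower, with a median of -0.33. With median-of-ratios scaling 7 of the 8 markers were higher and none lower, against 35.9% higher and 29.2% lower among all genes. The markers with the largest rises were the transcription factor genes Neurod2, at 133 TPM in IP and 85.1 TPM in input, and Emx1, at 59.7 TPM in IP and 41.5 TPM in input. The 2 called lower were Camk2a, at 183 TPM in IP and 288 TPM in input (-0.66), and Neurod1, at 15.2 and 17.4 TPM (-0.18). The vesicular glutamate transporter gene Slc17a7, at 628 TPM in IP and 537 TPM in input, did not pass (0.21, limma adjusted p = 0.124), was called higher without P7 IP replicate 1 (0.35, adjusted p = 0.00253) and with median-of-ratios scaling (0.70), and stood at -0.07 after quantile normalisation. Summed over 12 markers, inhibitory neuron RNA was at 98.7 to 110.2 TPM in P7 IP and 1034 to 1173 TPM in P7 input.

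RefSeq promoter windows (build GRCm38.p6, 250 bases before to 50 after a start) were matched by symbol for 8 of the 10 genes. The deposited values were made on mm39 and hold no coordinates. Shown are the windows of the gene that fell most, the gene that rose most and the gene that fell late, with 5 short motifs searched on both strands put in capitals. The motifs were the TATA box TATAAA, the GC box GGGCGG, a NEUROD-type E-box CAGATG, a T-box site AGGTGTG and a cAMP response element core TGACG, none of which overlap in these windows.
Ntsr1, chr2:180499726-180500025, plus strand: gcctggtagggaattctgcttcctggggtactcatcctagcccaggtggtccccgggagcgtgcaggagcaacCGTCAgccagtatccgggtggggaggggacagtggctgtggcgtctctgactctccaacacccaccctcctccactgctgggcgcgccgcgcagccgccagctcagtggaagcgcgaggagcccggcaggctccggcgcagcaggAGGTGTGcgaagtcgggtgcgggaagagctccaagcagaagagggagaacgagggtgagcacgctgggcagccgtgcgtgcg
Pcp4, chr16:96467356-96467655, plus strand: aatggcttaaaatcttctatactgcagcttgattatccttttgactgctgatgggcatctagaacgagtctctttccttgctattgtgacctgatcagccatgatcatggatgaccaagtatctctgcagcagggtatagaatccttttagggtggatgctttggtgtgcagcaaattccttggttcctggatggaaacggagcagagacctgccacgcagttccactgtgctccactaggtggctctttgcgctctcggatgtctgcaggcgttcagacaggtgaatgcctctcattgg
Fezf2, chr14:12345816-12346115, minus strand: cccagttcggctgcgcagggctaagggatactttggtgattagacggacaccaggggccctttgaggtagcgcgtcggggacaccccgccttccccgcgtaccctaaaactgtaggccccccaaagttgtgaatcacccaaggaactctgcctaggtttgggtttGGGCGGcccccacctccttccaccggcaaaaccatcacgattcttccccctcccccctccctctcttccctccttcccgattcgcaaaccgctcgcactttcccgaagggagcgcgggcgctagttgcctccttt
The Ntsr1 window held 1 T-box site and, as its reverse complement, 1 cAMP response element core, letters found in 5.84% and 20.8% of all 32851 windows. The Fezf2 window held 1 GC box, found in 35.7% of windows, and the Pcp4 window held none of the 5. The windows also differ in CpG content, with 23 CpG in Ntsr1, 20 in Fezf2 and 6 in Pcp4, more than in 78.5%, 73.5% and 43.6% of all windows. A match describes the letters and is no evidence of binding, and a missing motif says only that those letters are not in the window.

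The levels of the 10 genes spanned a wide range in the P7 pull-down. Pcp4, which encodes a small calmodulin-binding protein, stood at 1141 TPM, above 99.4% of the genes tested. Ldb2 (67.3 TPM), Fezf2 (61.7 TPM) and Tbr1 (36.5 TPM) followed, then Ntsr1 (18.3 TPM), Tle4 (16.4 TPM), Bcl11b (16.2 TPM), Etv1 (14.3 TPM), Sox5 (7.99 TPM) and Foxp2 (2.93 TPM). The libraries of Ldb2 and Fezf2 overlapped, as did those of Tle4 and Bcl11b and of Bcl11b and Etv1, so those neighbours in the order did not differ beyond their spread. By P21 the order had shifted to Pcp4, Tbr1, Fezf2, Ldb2, Etv1, Tle4, Bcl11b, Sox5, Ntsr1 and Foxp2. Overlap was then seen between Tbr1 and Fezf2, Fezf2 and Ldb2, Tle4 and Bcl11b, and Sox5 and Ntsr1.

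**Figure D1:**
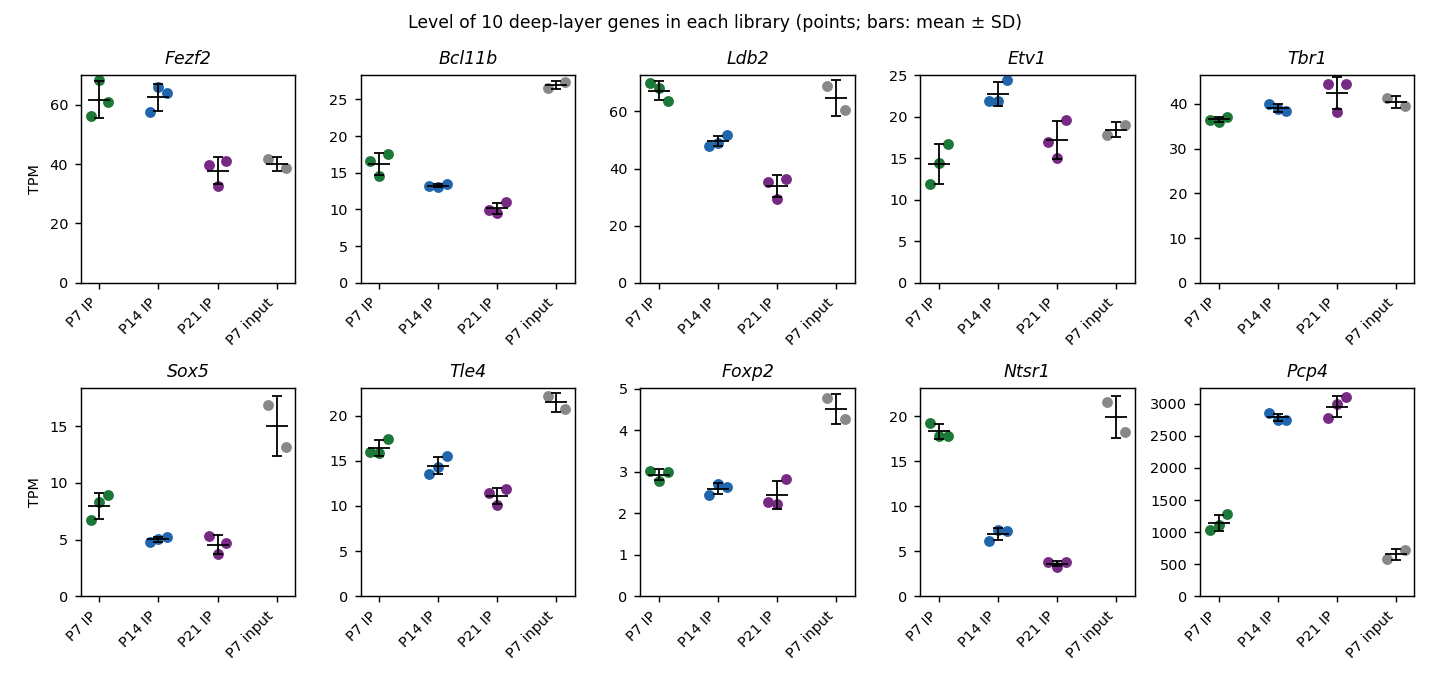
Level in TPM (vertical axis, from 0) of each of the 10 genes in P7 IP, P14 IP, P21 IP and P7 input (horizontal axis). Points are libraries and bars the mean with SD, n = 3 for each IP age and n = 2 for input. Ntsr1 falls at each age, Pcp4 rises between P7 and P14, and Etv1 is highest at P14.

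The comparison of pull-down with whole tissue at P7 asked how far deep-layer transcripts are carried by tagged ribosomes relative to the tissue. Fezf2 and Pcp4 were higher in IP, and Bcl11b, Sox5, Foxp2, Tle4 and Etv1 were lower. In all 7 of the 10 genes were called, against 69.8% of all genes tested, 18.6% higher and 51.1% lower, so this count is near the background. The 2 higher and 5 lower calls became 5 and 2 with median-of-ratios scaling and 3 and 1 after quantile normalisation. Over all genes the median change was -0.33 as deposited and 0.06 with median-of-ratios scaling, which gave 35.9% higher and 29.2% lower, and the changes below are to be read against that -0.33. The median of the 10 genes was -0.25. IP and input did not overlap for 8 of the 10 genes, against 78.4% of all genes.

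Fezf2 (ENSMUSG00000021743), the factor that specifies layer 5 neurons projecting below the cortex, was at 56.0, 68.3 and 60.8 TPM in P7 IP, against 41.8 and 38.5 TPM in P7 input. All IP libraries lay above both inputs, a log2 change of 0.60 ± 0.11 (limma adjusted p = 0.000612). Pcp4 (ENSMUSG00000090223) was at 1026, 1111 and 1286 TPM in P7 IP, against 587 and 714 TPM in P7 input, again with no overlap. Its change was 0.81 ± 0.10 (limma adjusted p = 4.56e-05). Both stayed called and higher under all alternatives run.

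Bcl11b (ENSMUSG00000048251), which encodes the zinc finger factor CTIP2 needed for corticospinal axons, was lower in the pull-down. It was at 16.5, 14.6 and 17.5 TPM in P7 IP, against 26.5 and 27.3 TPM in P7 input, a change of -0.70 ± 0.08 (limma adjusted p = 2.77e-05) that was called under all alternatives. Sox5 (ENSMUSG00000041540), a SoxD factor that times the making of deep-layer neurons, was at 6.70, 8.35 and 8.93 TPM in IP, against 16.9 and 13.2 TPM in input. Its change of -0.83 ± 0.15 (limma adjusted p = 0.000555) was not called after quantile normalisation (-0.34, adjusted p = 0.0699). Neither gene is confined to excitatory neurons. In the same libraries 51.1% of all genes tested were called lower in IP. The 12 inhibitory neuron markers were all lower (median -2.82), as were 5 of 5 oligodendrocyte precursor markers (summed 13.7 to 17.1 TPM in IP, 181 to 205 TPM in input). Of 8 striatal projection neuron markers 5 were lower, a share of 62.5% (summed 89.0 to 107 TPM in IP, 212 to 267 TPM in input). The part of these cell types in the lower Bcl11b and Sox5 was not tested.

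For the other genes the direction against input rested on scaling. The layer 6 corepressor gene Tle4 (ENSMUSG00000024642) was lower, at -0.37 ± 0.09 (limma adjusted p = 0.00278) as deposited, but stood at 0.10 with median-of-ratios scaling and 0.03 after quantile normalisation. Foxp2 (ENSMUSG00000029563), a forkhead factor of layer 6, was lower, at -0.49 ± 0.10 (limma adjusted p = 0.00158) as deposited, and at -0.10 and 0.11 under the same scalings. Etv1 (ENSMUSG00000004151), an ETS factor of layer 5, was lower, at -0.35 ± 0.13 (limma adjusted p = 0.0356), and stood at 0.11 and 0.08 under them. The Etv1 call was also lost without input replicate 1 (adjusted p = 0.0779) or 2 (0.162), without P7 IP replicate 1 (0.109) or 2 (0.0615), with no filter (0.0782) and when the P14 and P21 libraries were kept out of the model (0.0681). Ldb2, Ntsr1 and Tbr1 were not called as deposited (0.06 ± 0.09, -0.11 ± 0.10 and -0.14 ± 0.07), and all 3 were called higher with median-of-ratios scaling (0.54, 0.36 and 0.34). Tbr1 was called lower at -0.14 without P21 IP replicate 2 (adjusted p = 0.0253), and at -0.25 with mitochondrial, haemoglobin and ribosomal protein genes left out of the scaling (adjusted p = 0.005).

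**Figure D2:**
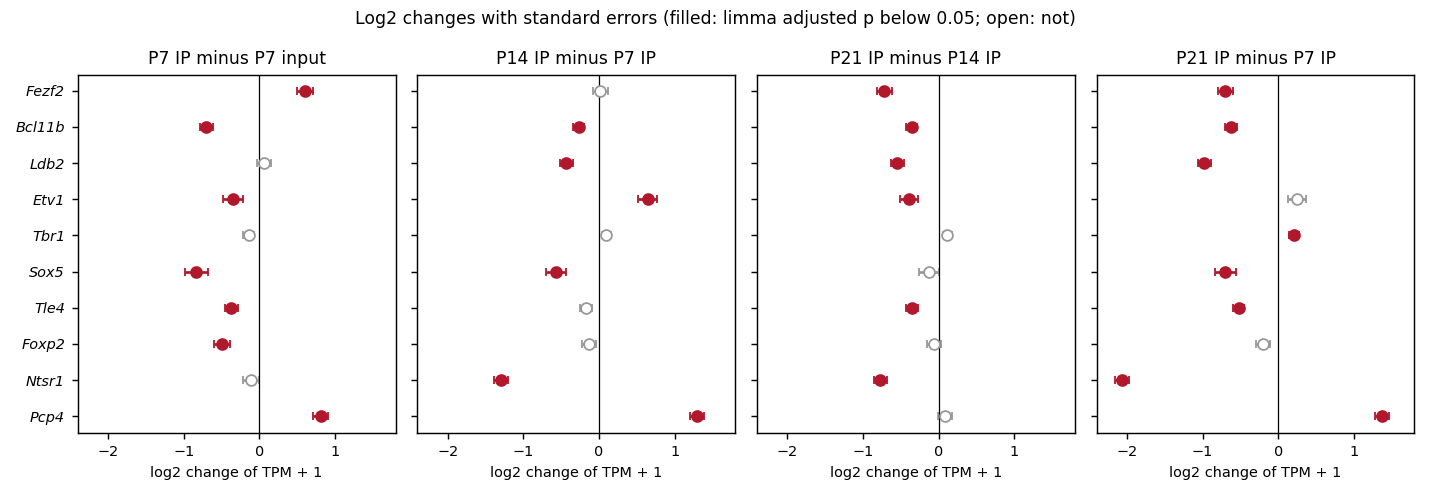
Log2 change of TPM + 1 with its standard error (horizontal axis) for each gene (rows) in 4 comparisons (panels). Filled points passed limma adjusted p below 0.05 and open points did not. No filled point lies right of 0 for P21 against P14.

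Across the 3 ages of the pull-down, 9 of the 10 genes passed the moderated F test, against 62.6% of all genes tested, and Foxp2 did not (limma adjusted p = 0.196). At P21 against P7, 6 genes had fallen and 2 had risen, 8 called against a background of 59.9% (32.6% lower and 27.3% higher), and the median change of the 10 was -0.57 beside -0.04 over all genes. The groups did not overlap for 8 of the 10 genes, against 63.9% of all genes. Over the second week 4 fell and 2 rose, 6 called against 49.5% of all genes (22.8% lower and 26.7% higher), with medians of -0.15 and 0.03, and P14 and P7 did not overlap for 9 genes, against 57.8% of all genes. Over the third week 6 fell and none rose, against 19.7% of all genes that fell and 8.53% that rose, with medians of -0.36 and -0.08, and P21 and P14 did not overlap for 6 genes, against 43.8% of all genes. With median-of-ratios scaling that background was 11.9% and 14.2%, and 5 of the 10 genes fell and 1, Tbr1, rose. The second weekly step differed from the first for 4 genes, 3 with a lower and 1 with a higher second step, against 24.3% of all genes (16.8% lower and 7.46% higher). Calls were more common among the 10856 genes with a mean of at least 5 TPM, a filter that Foxp2 does not pass. There 40.1% were lower and 32.8% higher at P21 against P7. The shares were 29.2% lower and 35.1% higher over the second week and 30.6% and 11.3% over the third. For the difference of steps they were 26.7% lower and 10.5% higher. The age comparisons share libraries and are not independent of each other. Markers of other cells also moved with age in the pull-down. The 6 oligodendrocyte markers, all called higher at P21, summed to 484 to 695 TPM at P21 and 30.9 to 34.5 TPM at P7, and the 8 striatal projection neuron markers, 5 called higher and 1 lower, summed to 269 to 294 TPM at P21 and 89.0 to 107 TPM at P7. The 12 inhibitory neuron markers, 5 called higher and 2 lower, summed to 109 to 136 TPM at P21 and 98.7 to 110.2 TPM at P7. Their part in the changes of the 10 genes was not tested.

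Ntsr1 (ENSMUSG00000027568), the neurotensin receptor gene that marks layer 6 corticothalamic neurons, fell most. It was at 19.3, 17.8 and 17.8 TPM at P7, at 6.10, 7.32 and 7.21 TPM at P14 and at 3.76, 3.28 and 3.81 TPM at P21. No library of any age overlapped with the next age. The log2 change was -1.30 ± 0.09 over the second week (limma adjusted p = 1.49e-06), -0.77 ± 0.09 over the third (limma adjusted p = 0.000248) and -2.07 ± 0.09 over both (limma adjusted p = 2.76e-08), and the mean TPM at P21 was 0.197 of that at P7. The second step was smaller than the first by 0.53 ± 0.16 (limma adjusted p = 0.0337). That difference was not called with a pseudocount of 0.1 TPM (adjusted p = 0.0646), with no filter (0.0773), or without P7 IP replicate 1 (0.0648) or 2 (0.0504), P14 IP replicate 1 (0.148), 2 (0.0524) or 3 (0.0558) or P21 IP replicate 1 (0.063) or 3 (0.0552). At P7 the mean of Ntsr1 was 18.3 TPM in IP and 19.9 TPM in input as deposited, and these libraries overlapped. It was called higher in IP with median-of-ratios scaling (0.36, limma adjusted p = 0.00812) and after quantile normalisation (0.30, limma adjusted p = 0.0228).

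The other genes of layer 6 changed less. Tle4, whose Groucho-family product represses transcription with partner factors, was at 15.9, 15.8 and 17.5 TPM at P7, 13.6, 14.3 and 15.5 TPM at P14 and 11.5, 10.1 and 11.8 TPM at P21. It fell over the third week (-0.35 ± 0.08, limma adjusted p = 0.00667) and not detectably over the second (-0.17 ± 0.08, limma adjusted p = 0.0887). For the second week a call was made after scaling by median of ratios (-0.22, adjusted p = 0.0198) and after quantile normalisation (-0.22, adjusted p = 0.0145).

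Tbr1 (ENSMUSG00000035033), the T-box factor of layer 6, was together with Pcp4, a gene that ended higher. It was at 36.4, 36.0 and 37.1 TPM at P7, 40.0, 38.7 and 38.3 TPM at P14 and 44.5, 38.2 and 44.5 TPM at P21. The change from P7 to P21 was 0.21 ± 0.06 (limma adjusted p = 0.013), was not called without P21 IP replicate 1 (0.17, adjusted p = 0.0541), and neither single week passed (0.09 ± 0.06 and 0.11 ± 0.06). The third week was called at 0.18 without P21 IP replicate 2 (adjusted p = 0.026), at 0.23 with median-of-ratios scaling and at 0.19 after quantile normalisation. Its F test over the ages (limma adjusted p = 0.035) was not called with no filter (0.0706), with moderation without a trend (0.0616), or without P7 IP replicate 1 (0.0735), 2 (0.0892) or 3 (0.0577), P14 IP replicate 2 (0.0541) or 3 (0.0505) or P21 IP replicate 1 (0.118) or 3 (0.106).

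Foxp2 was the lowest of the 10 genes throughout, at 2.78 to 3.01 TPM at P7, 2.45 to 2.70 TPM at P14 and 2.22 to 2.83 TPM at P21. It did not pass from P7 to P21 (-0.20 ± 0.09, limma adjusted p = 0.0932), but did without P21 IP replicate 3 (-0.27, adjusted p = 0.025). Sox5, expressed across the deep layers and subplate, fell over the second week and not detectably after it. It was at 6.70, 8.35 and 8.93 TPM at P7, 4.82, 5.02 and 5.21 TPM at P14 and 5.29, 3.69 and 4.68 TPM at P21. Its changes were -0.57 ± 0.13 over the second week (limma adjusted p = 0.00494) and -0.13 ± 0.13 over the third (limma adjusted p = 0.533), and the test of the difference between these steps did not pass (0.45 ± 0.23, limma adjusted p = 0.199).

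Of the layer 5 genes, Fezf2 kept its level for a week and then fell. It was at 56.0, 68.3 and 60.8 TPM at P7, 57.4, 65.9 and 64.0 TPM at P14 and 39.7, 32.5 and 40.9 TPM at P21. The P7 and P14 libraries overlapped, and all P21 libraries lay below them. The change was 0.02 ± 0.10 over the second week, which turned to -0.03 with median-of-ratios scaling, and -0.72 ± 0.10 over the third (limma adjusted p = 0.000614). The second step minus the first was -0.74 ± 0.17 (limma adjusted p = 0.0116), which was not called without P14 IP replicate 2 (-0.66, adjusted p = 0.0566).

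Bcl11b and Ldb2 fell in both weeks. Bcl11b was at 16.5, 14.6 and 17.5 TPM at P7, 13.2, 13.0 and 13.5 TPM at P14 and 9.87, 9.56 and 11.0 TPM at P21, with changes of -0.27 ± 0.07 (limma adjusted p = 0.0124) and -0.36 ± 0.07 (limma adjusted p = 0.00562). Ldb2 (ENSMUSG00000039706), which encodes an adaptor of LIM-domain transcription factors, was at 70.0, 68.0 and 63.8 TPM at P7, 48.0, 49.1 and 51.7 TPM at P14 and 35.4, 29.4 and 36.5 TPM at P21. Its changes were -0.43 ± 0.08 (limma adjusted p = 0.00148) and -0.55 ± 0.08 (limma adjusted p = 0.00103). For both genes the libraries of neighbouring ages did not overlap, and the test of the difference between the steps did not pass (limma adjusted p = 0.667 for Bcl11b and 0.619 for Ldb2). All these calls held under all alternatives.

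Etv1 was highest at P14. It was at 11.9, 14.4 and 16.7 TPM at P7, 21.8, 21.9 and 24.4 TPM at P14 and 16.9, 15.1 and 19.6 TPM at P21. It rose by 0.64 ± 0.12 over the second week (limma adjusted p = 0.00117) and fell by 0.39 ± 0.12 over the third (limma adjusted p = 0.0339), and the second step minus the first was -1.03 ± 0.21 (limma adjusted p = 0.00562). The third-week call was lost without P14 IP replicate 1 (adjusted p = 0.0556), 2 (0.0659) or 3 (0.112) or P21 IP replicate 1 (0.0857) or 2 (0.122), with no filter (0.1), with median-of-ratios scaling (0.0821) and after quantile normalisation (0.0836). Between P21 and P7 the change was 0.25 ± 0.12 and missed the threshold (limma adjusted p = 0.093), but it was called without P7 IP replicate 3 (adjusted p = 0.0226) or P21 IP replicate 2 (0.0452), with median-of-ratios scaling (0.0253) and after quantile normalisation (0.0269).

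Pcp4 rose in the second week and held that level. It was at 1026, 1111 and 1286 TPM at P7, 2858, 2752 and 2752 TPM at P14 and 2777, 2993 and 3101 TPM at P21. The change was 1.29 ± 0.09 over the second week (limma adjusted p = 1.74e-06) and did not pass over the third (0.08 ± 0.09, limma adjusted p = 0.543), where it stood at -0.21 after quantile normalisation. The second step minus the first was -1.21 ± 0.16 (limma adjusted p = 0.000791). Pcp4 made up 92.5% to 95.4% of the summed TPM of the 10 genes at P14 and P21. Markers of the hippocampal areas that also express it are given beside it, against 27.3% of all genes higher and 32.6% lower at P21 than at P7. Of the CA2 markers tested, 1 of 4 was higher, a share near that background, with Rgs14 at 28.2 TPM at P21 and 5.77 TPM at P7, and 1, Cacng5, was lower, and the median of the 4 was 0.11. Of the dentate gyrus markers tested 3 of 5 were higher and 1 was lower, with C1ql2 at 9.47 TPM at P21 and 1.22 TPM at P7. The summed level of the 5 CA2 markers was 39.9 to 41.2 TPM at P21 and 17.7 to 22.4 TPM at P7, a rise carried by Rgs14. Among the others, Amigo2 was at 6.12 TPM at P21 and 5.77 TPM at P7, and Stard5 at 3.68 and 3.20 TPM. Cacng5 was at 2.49 and 5.06 TPM, and Map3k15, not tested, at 0.166 and 0.221 TPM. The 6 dentate markers summed to 18.9 to 19.2 TPM at P21 and 6.42 to 7.65 TPM at P7. The part of either area in the rise of Pcp4 was not tested.

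Ratios within a library do not depend on a scaling factor common to all its genes, though quantile normalisation can change them. They were taken here from the values as deposited. Tbr1 over Fezf2 was 0.650, 0.527 and 0.610 at P7, 0.698, 0.588 and 0.599 at P14 and 1.12, 1.18 and 1.09 at P21, so every P21 library lay above every younger IP library. The P7 inputs were at 0.989 and 1.02, above all 3 P7 IP libraries. Without Pcp4, the other 9 genes summed to 236 to 246 TPM at P7, 207 to 223 TPM at P14 and 144 to 176 TPM at P21. This sum is weighted toward the highest of the 9 at P7, Ldb2 (67.3 TPM at P7 and 33.8 TPM at P21) and Fezf2 (61.7 and 37.7 TPM). Tbr1, the next in level at P7, did not fall (36.5 and 42.4 TPM).

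**Figure D3:**
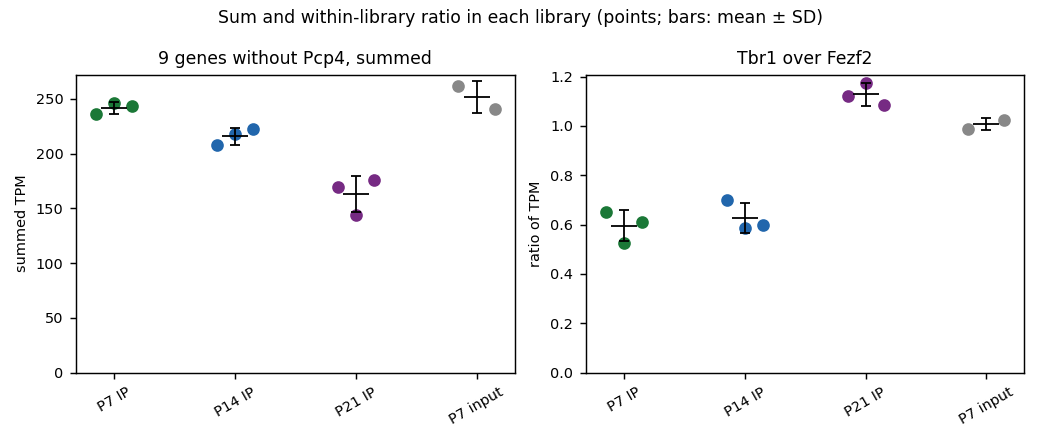
Summed TPM of the 9 genes other than Pcp4 (left) and the ratio of Tbr1 to Fezf2 (right), with points for libraries and bars for mean and SD, over P7 IP, P14 IP, P21 IP and P7 input (n = 3, 3, 3 and 2). The Tbr1 to Fezf2 ratio is above 1 in all 3 P21 libraries and below 1 in the younger IP libraries.

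Close relatives of the 10 genes were set beside them, 16 genes of which 15 were tested. At P21 against P7, 3 had risen and 6 had fallen, 60% called against 59.9% of all genes, with a median of 0.02. Bcl11a, the relative of Bcl11b, was higher in IP than in input at P7 (1.02 ± 0.08, limma adjusted p = 1.64e-06), where Bcl11b was lower, at 235 TPM in IP and 115 TPM in input. It fell like Bcl11b with age, to 139 TPM at P21, against 235 TPM at P7 (-0.76 ± 0.07, limma adjusted p = 6.53e-06). Pcp4l1, the relative of Pcp4, rose to 43.2 TPM at P21, against 8.88 TPM at P7, but was lower in P7 IP (8.88 TPM) than in P7 input (39.9 TPM).
Ntsr2, the second neurotensin receptor gene and one known from astrocytes, went the other way from Ntsr1, at 19.6 TPM at P21 and 6.49 TPM at P7 (limma adjusted p = 8.36e-07). The summed level of 8 astrocyte markers was 454 to 605 TPM at P21 and 150 to 210 TPM at P7, with all 8 above 1 TPM on average at both ages, and its part in the rise of Ntsr2 was not tested. Etv5 was higher at P21 than at P7 (40.1 against 10.4 TPM), and Foxp4 lower (58.3 against 91.3 TPM). Tle2 was lower at P21 (2.96 against 5.21 TPM), and Tle5 did not pass (0.16 ± 0.08, limma adjusted p = 0.112), a change called without P7 IP replicate 2 (adjusted p = 0.0307) or P21 IP replicate 3 (0.0178).

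A wider list of 30 deep-layer and subplate genes, all tested, moved in both directions. At P21 against P7, 15 fell and 7 rose, 73.3% called against 59.9% of all genes, with a median of -0.21. Among all genes with a mean of at least 5 TPM, 40.1% fell and 32.8% rose. Sla, a signalling adaptor gene, was at 10.5 TPM at P21 and 140 TPM at P7, and S100a10, a layer 5 marker that encodes a partner of annexin, at 101 TPM and 448 TPM. Rbp4, a layer 5 marker that encodes a retinol carrier, was at 19.8 TPM at P21 and 4.13 TPM at P7, and Igfbp4, which encodes a binding protein of insulin-like growth factors, at 173 TPM and 47.7 TPM. Over the third week 13 fell and 2 rose, 50% called against 28.3% of all genes, and 9 fell and 2 rose with median-of-ratios scaling. In that week 30.6% of genes with a mean of at least 5 TPM fell and 11.3% rose.

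The 15 upper-layer genes were also all tested. At P21 against P7, 8 fell and 4 rose, 80% called against 59.9% of all genes (32.6% lower and 27.3% higher), with a median of -0.52 beside -0.04 over all genes. The shares were 40.1% lower and 32.8% higher among genes with a mean of at least 5 TPM. Mdga1, which encodes an adhesion protein, was at 8.81 TPM at P21 and 26.2 TPM at P7, and Pou3f1, a POU-domain factor gene, at 14.0 and 35.6 TPM, while Lamp5 was at 388 TPM and 16.0 TPM and the calcium-binding protein gene Calb1 at 57.5 and 10.8 TPM. Over the third week 4 of the 15 fell and 1 rose, 33.3% called against 28.3% of all genes (19.7% lower and 8.53% higher), and this balance turned round to 2 lower and 3 higher with median-of-ratios scaling and after quantile normalisation. These counts and medians describe the lists, and no difference between deep and upper layers was tested.

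**Figure D4:**
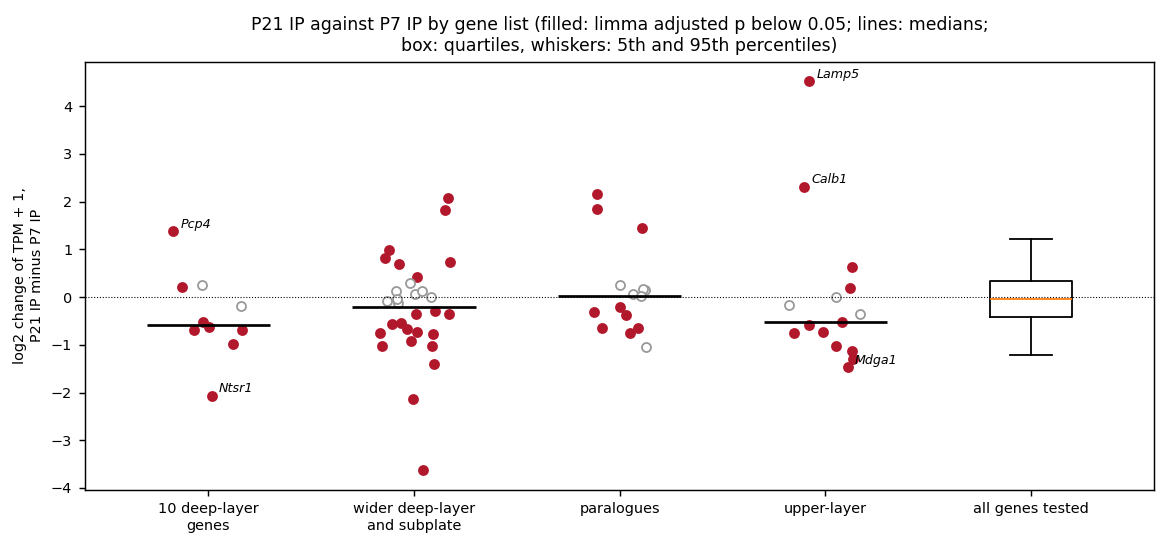
Log2 change of TPM + 1 from P7 IP to P21 IP (vertical axis) for genes of 4 lists (points, filled where limma adjusted p was below 0.05, lines for medians) and for all 19008 genes tested (box with quartiles, whiskers at the 5th and 95th percentiles). Medians are -0.57 for the 10 deep-layer genes, -0.21 for the wider list, 0.02 for relatives and -0.52 for upper-layer genes.

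Genes with the most similar time course were found by the root mean square difference of centred log2 values over the 9 IP libraries. Among the 10 genes themselves the closest pair was Bcl11b and Tle4 (0.08) and the most distant Ntsr1 and Pcp4 (1.47). Over all genes with a mean of at least 10 TPM, Ntsr1 was nearest to Amz2 (0.06) and Sema6c (0.07), Pcp4 to Rnf6 and Icam5 (both 0.07), and Fezf2 to Tcta (0.08) and Gnao1 (0.09). Etv1 was nearest to Gda (0.05) and Dlg2 (0.06). Their means were highest at P14, at 108 and 154 TPM, which follows from how they were chosen. Tbr1 was nearest to Ik and Ddx1 (both 0.04), with means of 73.6 and 31.1 TPM at P7, 77.8 and 33.4 TPM at P14 and 83.2 and 35.5 TPM at P21.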

How the data were processed

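Expression values are TPM as the authors deposited them, for 77179 Ensembl IDs in 11 libraries. The tools listed per the submitters' processing notes are Salmon 1.10.0, fastp 1.0.1 and DESeq2 1.46.0, and the build is mm39. The sources used here do not give each tool's role, the annotation or the strand setting. TPM keep no depth, so precision comes only from the spread between replicates, and each value depends on what the other genes take up.

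The 10 genes and the 18 context lists (163 entries, from general knowledge) were chosen with earlier results of these data known. A table of Ensembl IDs gave symbols, with 2 older symbols (Tle5 and Lratd2) matched through RefSeq. Testing covered the 19008 genes that reached 1 TPM in 2 or more libraries. The model, in limma 3.58.1 (R 4.3.3), took log2(TPM + 1) and gave each group its own mean (7 residual degrees of freedom), trended moderation and p-values adjusted by Benjamini-Hochberg across those genes. Besides the 10 genes and their relatives, the text names up to 4 called members of a list per comparison (the 2 largest rises and the 2 largest falls), markers of the labelled and other cells, and the 2 most similar profiles per gene. The code was tested on simulated data. Alternatives were other pseudocounts, filters and scalings, no trend, a replicate block, only the groups compared, and leaving out single libraries. Plots used matplotlib 3.10.9 (Python 3.11.15). A further within-library ratio is not reported here.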

Additional observations from a re-analysis of the deposited data

Results flagged for a closer look

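For 4 of the 10 genes the change over the third week differed from that over the second by a direct test, against 24.3% of all genes tested (16.8% with a lower and 7.46% with a higher second step, 10.4% and 11.9% with median-of-ratios scaling). Among genes with a mean of at least 5 TPM these shares were 26.7% lower and 10.5% higher. The second step minus the first was -0.74 for Fezf2 (limma adjusted p = 0.0116), -1.03 for Etv1 (limma adjusted p = 0.00562), 0.53 for Ntsr1 (limma adjusted p = 0.0337) and -1.21 for Pcp4 (limma adjusted p = 0.000791). Both steps use the P14 libraries. Etv1 and Pcp4 kept their calls under all alternatives, Fezf2 lost its call without P14 IP replicate 2 (-0.66, adjusted p = 0.0566), and the call of Ntsr1 was lost under 9 alternatives (0.38 to 0.61 with 1 library left out).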

How the results depend on the processing

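Of 1254 values recomputed for single genes, 1178 kept their direction and side of the threshold, 36 lost a call, 15 gained one and 25 changed sign. For IP against input the count of called genes went to 4 after quantile normalisation, against 7 as reported. Sign changes there with median-of-ratios scaling were Tbr1 (0.34), Tle4 (0.10), Etv1 (0.11) and Ntsr1 (0.36), after quantile normalisation Tbr1 (0.0337), Foxp2 (0.114), Tle4 (0.0287), Etv1 (0.0840) and Ntsr1 (0.296), and, with ribosomal protein, haemoglobin and mitochondrial genes left out of the scaling, Ldb2 (-0.05). Later sign changes with median-of-ratios scaling were Fezf2 at P14 against P7 (-0.0349), Foxp2 at P21 against P14 (0.0172), and Bcl11b (0.0705) and Ldb2 (0.0550) in the difference of steps, and after quantile normalisation Pcp4 at P21 against P14 (-0.21) and Bcl11b in the difference of steps (0.0478). The cause was not tested. Over all genes, calls for IP against input were 8265 with a mean of at least 5 TPM, a filter that tests fewer genes and leaves Foxp2 untested, against 13259.

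With 1 library left out, 6 to 8 genes were called for IP against input, 6 in the second week, 5 to 6 in the third, 7 to 9 over both weeks, 8 to 9 for the F test and 2 to 4 for the difference of steps (all genes 3012 to 4698, against 4613), where the lowest came without P14 IP replicate 2. Against input Ldb2 ran from -0.0373 to 0.154 and Ntsr1 from -0.223 to 0.00473. Fezf2 ran from -0.0477 to 0.0936 for P14 against P7, and in the difference of steps Tbr1 ran from -0.0169 to 0.0902 and Foxp2 from -0.0181 to 0.106. Deviations of the 9 same-numbered IP pairs correlated at 0.012 to 0.177, with 1 above 0.1. Taken from means of 3 libraries, such deviations cannot decide whether replicate numbers pair the libraries. With the replicate block 7 genes were called for IP against input, 7 in the second week, 6 in the third, 9 over both weeks, 9 for the F test and 4 for the difference of steps, with Tle4 in the second week (adjusted p = 0.0416) and Etv1 over both weeks (adjusted p = 0.0255) called in addition.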
